A study of Rattus norvegicus with 6 samples.

Results

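Organic anion, organic cation and urate transporters of the renal cortex were examined in male Sprague-Dawley rats given o-anisidine hydrochloride, an aromatic amine. The set holds 9 genes, namely Slc22a2, Slc22a6, Slc22a8, Slco4c1, Slc22a12, Slco1a1, Slc47a1, Slc22a7 and Slc2a9, of 31087 genes tested. Its members were chosen by name, and every non-control probe whose RefSeq accession belonged to one of these symbols was read, which gave 17 probes. Of the 9 genes, 1 had 3 probes, 6 had 2 and 2 had 1. All 17 probes were well above background on all 6 arrays, so no member was lost to the filter on dim probes.

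The o-anisidine group was 3 rats dosed at 700 mg/kg/day for 4 weeks, and the control group was 3 rats given water for the same time. All were Crl:CD(SD) rats bought at 5 weeks of age, and both groups ate a basal diet and drank tap water. Each animal's cortex was measured as total RNA on 1 single-colour Agilent array, and whole cortex was sampled rather than sorted tubules. A level below is the log2 signal of a probe relative to the 75th percentile of its array, so a level of 0 is the signal of that percentile, and a log2 change is the o-anisidine mean minus the control mean.

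Proximal tubule cells move organic ions from blood to urine in a pair of steps. Carriers of the basolateral membrane, which faces the blood, take up drugs, hormones and metabolites. Carriers of the apical membrane, which faces the tubule lumen, release them or, in the case of urate, take them back. Slc22a6 (Oat1) and Slc22a8 (Oat3) exchange blood organic anions for dicarboxylates from inside the cell, Slc22a2 (Oct2) takes up organic cations, and Slco4c1 is a basolateral carrier of digoxin and thyroid hormone. On the apical side, Slc22a12 (Urat1) reabsorbs urate, Slc47a1 (Mate1) exchanges organic cations for protons, and Slco1a1 (Oatp1) carries organic anions at the rat brush border. Slc22a7 (Oat2) and Slc2a9 (Glut9, a urate carrier) were placed on neither side, because their membrane differs between species or splice forms.

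Upstream sequence is shown for 2 members as background only, and no protein binding to it was measured. They are Slc22a12, the member with the smallest p, and Slco4c1, whose human counterpart has been described as inducible through the aryl hydrocarbon receptor. The sequences come from RefSeq on the GRCr8 build and give the 250 bases before the annotated start of each gene, 5′ to 3′ on the gene's own strand. Capitals mark matches on either strand to CAAAGT, which opens the longer HNF4 motif, or to GCGTG, the core bound by the aryl hydrocarbon receptor.
Slc22a12: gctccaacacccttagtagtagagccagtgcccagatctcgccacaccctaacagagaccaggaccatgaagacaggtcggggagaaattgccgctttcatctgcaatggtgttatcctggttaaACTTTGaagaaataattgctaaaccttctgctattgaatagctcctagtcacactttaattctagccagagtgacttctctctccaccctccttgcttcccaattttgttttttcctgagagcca
Slco4c1: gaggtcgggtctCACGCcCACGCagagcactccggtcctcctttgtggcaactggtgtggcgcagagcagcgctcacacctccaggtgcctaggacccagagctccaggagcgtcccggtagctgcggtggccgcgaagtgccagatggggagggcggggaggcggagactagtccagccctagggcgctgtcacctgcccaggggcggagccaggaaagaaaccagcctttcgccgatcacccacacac
The Slc22a12 window is chr1:213281381-213281630 on the minus strand, and that of Slco4c1 is chr9:104676463-104676712 on the minus strand. Slc22a12 held 1 match to CAAAGT, at -125 from the start, and Slco4c1 held 2 matches to GCGTG, at -238 and -232, with no overlap between them. Windows of 7 members were in the table, and the others of these, Slc22a2, Slc22a8, Slco1a1, Slc22a7 and Slc2a9, held neither motif. Among 33469 upstream windows of the same length, 12.9% held CAAAGT and 25.9% held GCGTG. In the order of genes along the chromosomes of that table, Slc22a8 and Slc22a6 are neighbours, and Slc47a1 lies next to Slc47a2.

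The tissue label was checked first. All 18 proximal tubule markers were well above background on all 6 arrays, and their summed level was 11.25 to 11.41 on o-anisidine arrays and 11.25 to 11.34 on control arrays. The median log2 change was 0.02 for proximal tubule, -0.05 for thick limb, -0.16 for distal tubule and collecting duct, -0.08 for podocyte, 0.02 for endothelium, -0.15 for leukocyte and -0.29 for fibroblast markers, with 0 genes of these lists past the adjusted threshold. The summed distal tubule and collecting duct level was 7.39 to 7.87 in the o-anisidine group and 7.97 to 8.02 in the control group, which did not overlap. Signals were summed before taking the log, so the brightest gene of that list, Aqp2 (log2 change -0.58), weighed most. Slc26a4, the next brightest, had a log2 change of -0.04. Of 8 red cell markers, 4 rose past the threshold, as 0.0354% of all genes did. All 8 were higher with groups that did not overlap, as were 9.55% of all genes. Their summed level was 10.54 to 10.86 after o-anisidine and 9.50 to 9.97 in controls. The part of these cell types in the transporter values was not tested. In whole cortex, fewer cells of a type and less RNA per cell cannot be told apart. All 3 control arrays and o-anisidine 3 lay on 1 slide and o-anisidine 1 and 2 on the other, so values of the members within the shared slide are given beside the pooled ones. The authors' deposited value table numbered the 3 animals within each group differently from the scanner files, whose numbers are used here, and no animal changed group.

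The comparison asked which of these carriers differed in RNA level after 4 weeks of o-anisidine. Slc22a12, the apical urate carrier, stood 1.51-fold higher in the o-anisidine group on average, and Slc47a1, the apical cation exporter, stood 1.22-fold lower. In both cases the groups did not overlap. The other 7 carriers had overlapping groups. No member passed the adjusted threshold of 0.05 (limma with Benjamini-Hochberg adjustment over all genes, two-sided), where 0.0611% of the 31087 genes did (0.0354% higher and 0.0257% lower). At an unadjusted p under 0.05, 1 member was higher and 1 lower, against 6.36% and 5.14% of all genes. Groups did not overlap for 1 higher and 1 lower member, against 9.55% and 8.88% of all genes. A count of 1 of 9 in each direction is near these backgrounds.

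**Figure D1:**
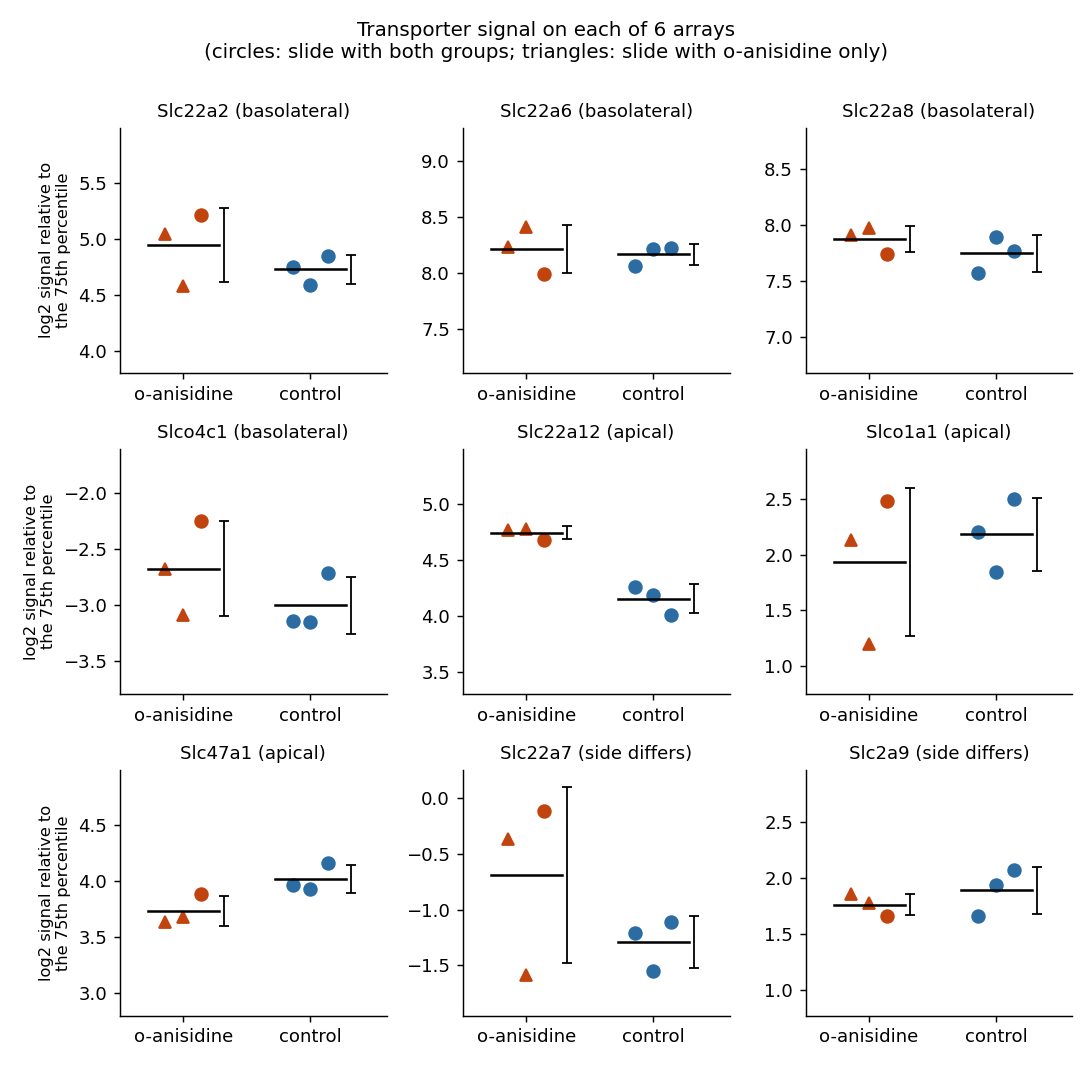
Level of each transporter on each array, as log2 signal relative to the 75th percentile (vertical axes differ in position but span the same height), with o-anisidine left and control right; the black line is the mean of 3 arrays and the bar the SD. Circles are arrays on the slide that held both groups and triangles those on the other slide, and Slc22a12 and Slc47a1 are the panels whose groups do not overlap.

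Among the apical carriers, Slc22a12 had levels of 4.77, 4.78 and 4.68 in o-anisidine rats 1, 2 and 3, against 4.26, 4.18 and 4.01 in control rats 1, 2 and 3. The lowest o-anisidine array stood 0.42 above the highest control array, a gap wider than the range of either group (0.10 in the o-anisidine group and 0.25 in the control group). Means were 4.74 ± 0.06 after o-anisidine and 4.15 ± 0.13 in controls (SD, n = 3 each). The log2 change was 0.59 (SE 0.09, 95% interval 0.37 to 0.81, adjusted p = 0.112 by limma). In all, 152 genes had a smaller p-value. Its other probes gave the same picture: A_44_P398128 had a log2 change of 0.59 (SE 0.11) and A_44_P398132 of 0.50 (SE 0.11), and the groups did not overlap on either. On the slide that held both groups the log2 change was 0.53, from 1 o-anisidine array against 3 controls. Over 17 alternative settings the log2 change lay between 0.52 and 0.65. The adjusted p fell under the threshold in 1 of them, in which the prior variance followed the mean level and was fitted robustly (adjusted p = 0.0430 by limma), and was highest, at 0.38, within the shared slide.

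Slc47a1 had levels of 3.63, 3.68 and 3.88 in o-anisidine rats 1, 2 and 3, against 3.96, 3.93 and 4.16 in control rats 1, 2 and 3. The groups were separated by only 0.05, between o-anisidine 3 and control 2. The log2 change was -0.29 (SE 0.10, 95% interval -0.54 to -0.03, adjusted p = 0.396 by limma). Its second probe, A_43_P19475, had a log2 change of -0.21 (SE 0.11), again without overlap, by a margin of 0.01. Within the shared slide the log2 change was smaller, at -0.13, since o-anisidine 3 was the treated array closest to the controls.

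Slco1a1 had levels of 2.13, 1.20 and 2.48 in o-anisidine rats 1, 2 and 3, against 2.20, 1.84 and 2.50 in control rats 1, 2 and 3. The o-anisidine arrays spanned 1.28 on the log2 scale and the control arrays 0.66, and o-anisidine 2 alone lay below all controls. The log2 change was -0.24 (SE 0.35, 95% interval -1.10 to 0.61, adjusted p = 0.824 by limma). Its direction turned within the shared slide, to 0.30, and without o-anisidine 2, to 0.13. The gene lies beside Slco1a4 and Slco1a3 in the RefSeq gene order, and signal shared with such close relatives on its 1 probe could not be separated here.

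All 4 basolateral carriers had overlapping groups. Slc22a6 had levels of 8.23, 8.42 and 7.99 in o-anisidine rats 1, 2 and 3, against 8.06, 8.22 and 8.23 in control rats 1, 2 and 3. The control values lay inside the range of the o-anisidine values, with a log2 change of 0.04 (SE 0.13, 95% interval -0.26 to 0.35, adjusted p = 0.917 by limma). Its second probe, A_42_P797805, gave -0.12 (SE 0.14), and the value within the shared slide was -0.18.

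Slc22a8 had levels of 7.91, 7.98 and 7.74 in o-anisidine rats 1, 2 and 3, against 7.57, 7.90 and 7.77 in control rats 1, 2 and 3. The groups overlapped, with a log2 change of 0.13 (SE 0.11, 95% interval -0.15 to 0.41, adjusted p = 0.693 by limma) and one of 0.03 (SE 0.10) on its second probe, A_44_P543342. Within the shared slide it was -0.0024, without control 1 it was 0.04, and without control 2 it was 0.21.

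Slc22a2 had levels of 5.04, 4.58 and 5.22 in o-anisidine rats 1, 2 and 3, against 4.75, 4.59 and 4.85 in control rats 1, 2 and 3. o-Anisidine 1 and 3 lay above all controls and o-anisidine 2 just below them, and the log2 change was 0.22 (SE 0.18, 95% interval -0.21 to 0.65, adjusted p = 0.672 by limma). Its second probe, A_44_P266976, had 0.33 (SE 0.21), and the shared slide gave 0.49. Without o-anisidine 2 it was 0.40, and without o-anisidine 3 it was 0.08.

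Slco4c1 had levels of -2.68, -3.10 and -2.25 in o-anisidine rats 1, 2 and 3, against -3.15, -3.16 and -2.71 in control rats 1, 2 and 3. o-Anisidine 1 and 3 again stood above all controls and o-anisidine 2 among them, with a log2 change of 0.33 (SE 0.24, 95% interval -0.25 to 0.91, adjusted p = 0.633 by limma). The second probe, A_44_P543048, gave 0.21 (SE 0.32) and the shared slide 0.76. Leaving out o-anisidine 2 gave 0.54 and leaving out o-anisidine 3 gave 0.12.

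Of the pair placed on neither side, Slc22a7 had levels of -0.37, -1.58 and -0.11 in o-anisidine rats 1, 2 and 3, against -1.21, -1.55 and -1.11 in control rats 1, 2 and 3. o-Anisidine 1 and 3 stood above all controls, whereas o-anisidine 2 was the lowest of the 6 arrays. The log2 change was 0.60 (SE 0.39, 95% interval -0.34 to 1.55, adjusted p = 0.598 by limma), which was about as large as that of Slc22a12 but with a wider standard error (0.39 against 0.09). Within the shared slide it was 1.18. Leaving out o-anisidine 1, 2 or 3 gave 0.44, 1.05 and 0.31, so its size depended on single arrays.

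Slc2a9 had levels of 1.85, 1.77 and 1.66 in o-anisidine rats 1, 2 and 3, against 1.66, 1.94 and 2.08 in control rats 1, 2 and 3. The groups overlapped through control 1, and the log2 change was -0.13 (SE 0.12, 95% interval -0.43 to 0.18, adjusted p = 0.728 by limma). Its second probe, A_44_P302145, gave -0.26 (SE 0.15), and the shared slide gave -0.23. Its change was -0.08 without o-anisidine 3, -0.24 without control 1 and -0.04 without control 3.

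**Figure D2:**
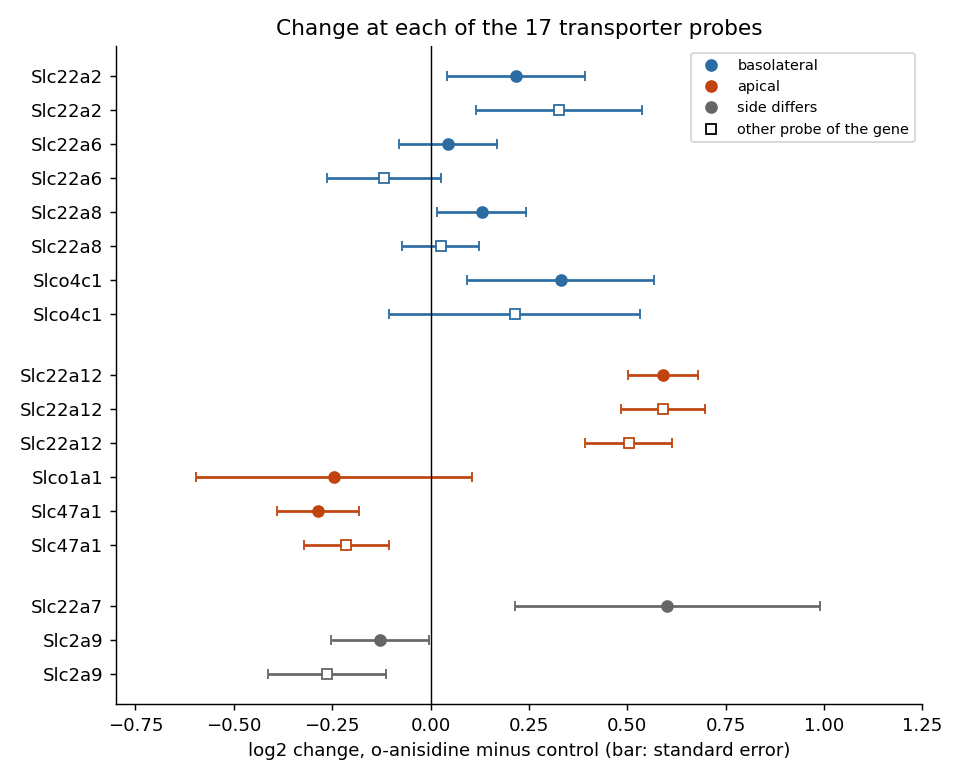
Log2 change, o-anisidine minus control, at each of the 17 probes (points, with the limma standard error as bars), grouped by membrane side; filled points are the probe used for the gene and open squares its other probes. The 3 probes of Slc22a12 sit between 0.50 and 0.59, both probes of Slc47a1 lie below 0, and those of Slc22a6 fall on either side of 0. Slc47a1 also stayed below 0 under all 17 alternatives, some of which could not alter its change.

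Set side by side, the 4 basolateral carriers had log2 changes between 0.04 and 0.33, with a median of 0.17, although Slc22a6 and Slc22a8 turned below 0 with quantile normalization and within the shared slide. The 3 apical carriers spread from -0.29 to 0.59, 1 above 0 and 2 below, with a median of -0.24. Slc22a7 (0.60) and Slc2a9 (-0.13) entered neither median, and both medians depend on that placement. Summed levels of the apical carriers were 5.41 to 5.52 on o-anisidine arrays and 5.21 to 5.31 on control arrays, without overlap. Slc22a12 had the highest mean level of these 3 in each group. Those of the basolateral carriers were 8.98 to 9.27 and 8.92 to 9.13, which overlapped. Over all 9 members the median was 0.13, and over all genes tested it was 0.00367. The median of the members was -0.00049 with quantile normalization, 0.08 with the mean of all kept probes, 0.04 without control 1 and 0.30 within the shared slide. Each array's shift, its level minus the mean of the controls, was also summarised per side. The basolateral carriers had median shifts of 0.24 (o-anisidine 1), 0.07 (o-anisidine 2) and 0.24 (o-anisidine 3), and of -0.13 (control 1), -0.04 (control 2) and 0.09 (control 3). The apical carriers had median shifts of -0.05 (o-anisidine 1), -0.34 (o-anisidine 2) and 0.30 (o-anisidine 3), and of 0.02 (control 1), -0.09 (control 2) and 0.14 (control 3). The apical median was thus above the control mean on o-anisidine 3, the treated array of the shared slide, and below it on the other two, whereas the basolateral median was above it on all 3 o-anisidine arrays. No test was made between the sides. The pooled apical median is the value of Slco1a1, whose direction depended on o-anisidine 2. The apical shift of -0.34 on o-anisidine 2 is that of Slc47a1.

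Members also differed in how they varied between animals of 1 group. In 4 of the 9, namely Slc22a2, Slco4c1, Slco1a1 and Slc22a7, the levels ranked o-anisidine 3, then 1, then 2 in the treated group and control 3, then 1, then 2 in the control group. This order was picked out after the values were seen, and 2.94% of all genes tested had it. That share is for this order alone, so no excess among the members can be read from it. It was also held by Slc22a24 and Slco1a6, relatives of the members, and among the 18 proximal tubule markers by Aqp1, Mme and Slc7a13. Slc7a13, an amino acid transporter of the last proximal tubule segment, had levels of 6.40, 5.73 and 6.65 in o-anisidine rats 1, 2 and 3, against 6.07, 5.74 and 6.32 in control rats 1, 2 and 3. Replicate numbers did not pair the animals by any label. In contrast, the 3 o-anisidine levels of Slc22a12 differed by 0.10 at most.

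**Figure D3:**
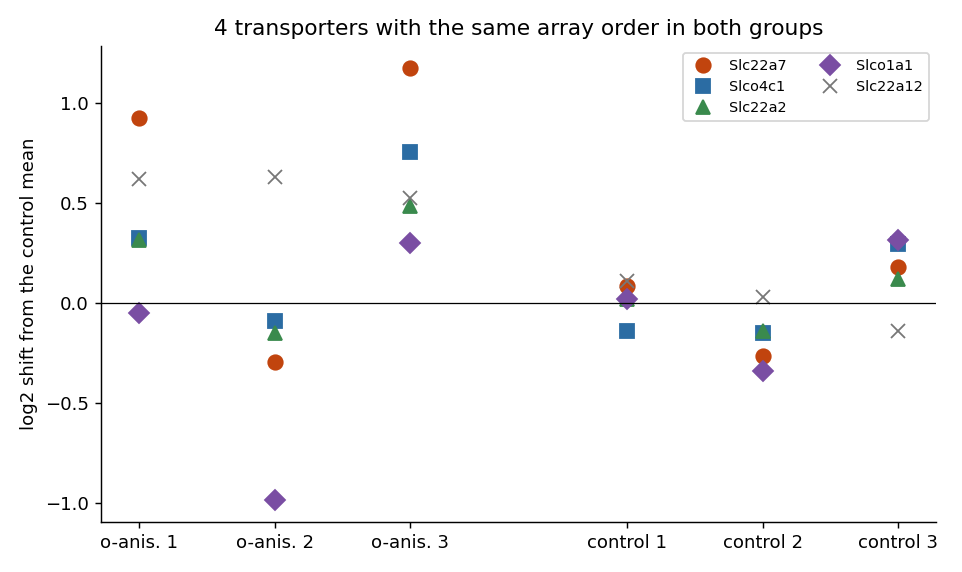
Shift of each array from the control mean (log2, vertical axis) for the 4 carriers that rank the arrays alike in both groups and, as crosses, for Slc22a12; each point is 1 array, o-anisidine left and control right. Slc22a7 ranges from -0.29 on o-anisidine 2 to 1.18 on o-anisidine 3, whereas Slc22a12 stays between 0.53 and 0.63 on all 3 o-anisidine arrays.

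Among carriers of the same families outside the set, none passed the adjusted threshold. Of 11 other Slc22 genes tested, 0 were higher and 2 lower at an unadjusted p under 0.05, against 6.36% and 5.14% of all genes. Their median log2 change was 0.06. One of the lower genes, named after its values were seen, was Slc22a17, described as a lipocalin receptor. Its groups did not overlap (log2 change -0.27, SE 0.07, adjusted p = 0.252 by limma).

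Of 8 other Slco genes, 1 had a change above 0, against 15811 of 31087 genes tested, and the median log2 change was -0.13. One of the 8, Slco1b2, was dim and well above background on 4 of 6 arrays. The filter thus kept it through 1 group only, and its change, below 0, enters that count and median. At an unadjusted p under 0.05, 0 were higher and 1 lower, against 6.36% and 5.14% of all genes. The lower gene was Slco2a1, the prostaglandin transporter, with levels of -2.71, -2.64 and -2.59 in o-anisidine rats 1, 2 and 3, against -2.29, -1.81 and -1.79 in control rats 1, 2 and 3. The groups did not overlap (log2 change -0.69, SE 0.15, adjusted p = 0.192 by limma), and the shared slide gave -0.63.

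Of 10 genes of urate handling, 9 had log2 changes above 0, against 15811 of 31087 genes tested, and the median was 0.16. At an unadjusted p under 0.05, 4 were higher and 0 lower, against 6.36% and 5.14% of all genes. Groups did not overlap for 4 higher genes, against 9.55% of all genes, and 0 passed the adjusted threshold. No test was made of the list as a group. Slc17a3, an apical phosphate-family carrier that can export urate, ranked first by p in this list. Its levels were 4.55, 4.64 and 4.72 in o-anisidine rats 1, 2 and 3, against 4.16, 4.18 and 4.26 in control rats 1, 2 and 3. The groups did not overlap, and the log2 change was 0.44 (SE 0.08, adjusted p = 0.134 by limma) and 0.52 within the shared slide. Like Slc22a12, it was higher on every o-anisidine array than on any control array. The other 3, named after their values were seen, were its relative Slc17a1 (log2 change 0.31, SE 0.11), Abcc4, an ABC pump that can export urate (0.43, SE 0.15), and Hprt1, a purine salvage enzyme (0.18, SE 0.07). Their adjusted p-values lay between 0.371 and 0.412 by limma.

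The list of carriers that supply exchange partners for anion uptake had 7 of 11 changes above 0, against 15811 of 31087 genes tested. Its median log2 change was 0.11. In it Slc26a1, a sulfate and oxalate exchanger, ranked first by p, with overlapping groups and a log2 change of 0.48 (SE 0.18), at an adjusted p of 0.412 by limma, and 0.45 within the shared slide. The ABC efflux pumps had a median of 0.08 over 7 genes, and Abcb1b, a multidrug pump, had the smallest p. Its log2 change was 0.53 (SE 0.31, adjusted p = 0.568 by limma) on the probe used, with overlapping groups, and 0.29 within the shared slide. The other probes disagreed in size, with 1.41 (SE 0.35) on A_64_P039888, where groups did not overlap, and 0.15 (SE 0.45) on A_44_P141897, where they did.

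Of 12 regulators known for these genes, 3 were lower and 0 higher at an unadjusted p under 0.05, against 5.14% and 6.36% of all genes, and the median of the list was -0.02. Hnf4a, a nuclear receptor that drives proximal tubule genes, had the smallest p. Its levels were -0.04, -0.32 and -0.22 in o-anisidine rats 1, 2 and 3, against 0.57, 0.36 and 0.63 in control rats 1, 2 and 3. All o-anisidine arrays lay below all controls (log2 change -0.71, SE 0.11, adjusted p = 0.115 by limma), and the groups did not overlap on its other probes either, which gave -0.28 (A_44_P419188) and -0.51 (A_64_P046573). The shared slide gave -0.74. The other lower regulators, named after their values were seen, were Esr1, the estrogen receptor alpha (-0.71, SE 0.13, adjusted p = 0.145 by limma), whose groups did not overlap, and Nr1i3, a xenobiotic-sensing nuclear receptor. The Esr1 probe was dim too, with mean levels of -5.09 after o-anisidine and -4.38 in controls, though well above background on all 6 arrays. The Nr1i3 probe was dim and well above background on 5 of 6 arrays, so the filter kept it through 1 group only. Its lower levels after o-anisidine are thus not given as a fold, and its place among the 3 lower regulators carries that limit.

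**Figure D4:**
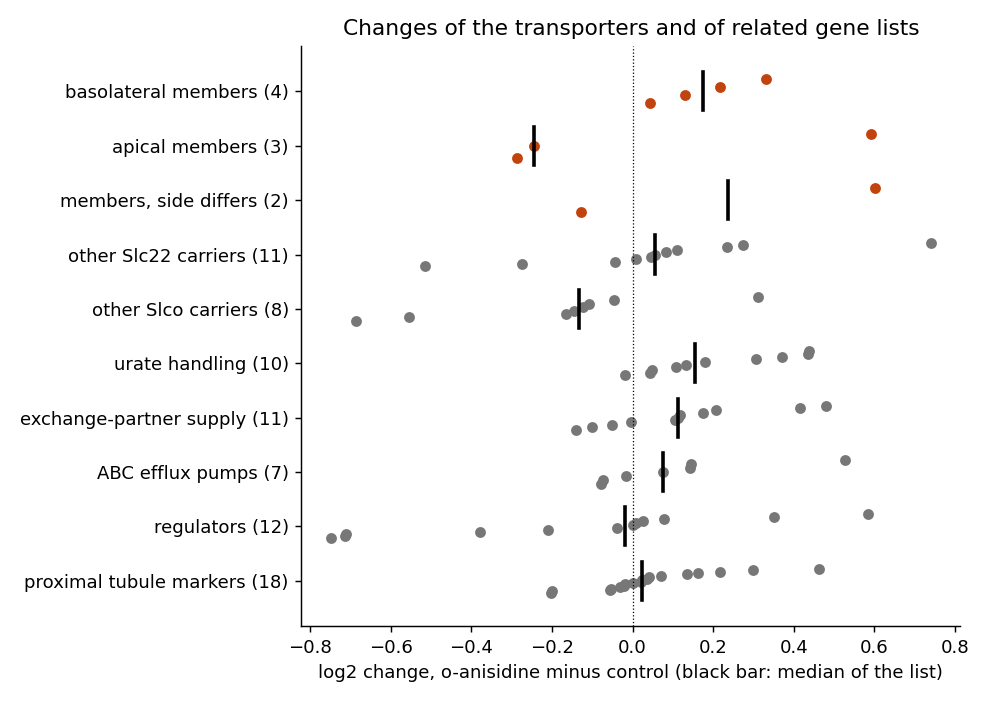
Log2 change, o-anisidine minus control, of every tested gene (points) in the groups of members (orange) and in the related lists (grey), with the number of genes in brackets and the median as a black bar. The basolateral members sit between 0.04 and 0.33 (Slc22a6 and Slc22a8 turned below 0 with quantile normalization), whereas the apical members spread from -0.29 to 0.59.

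The markers with the smallest p in the cell type lists, apart from red cells, were Slc4a4 for proximal tubule (log2 change 0.30), Cldn16 for thick limb (-0.23), Scnn1b for distal tubule and collecting duct (-0.55), Podxl for podocyte (-0.31), Emcn for endothelium (-0.22), Cd8a for leukocyte (-0.47) and Col1a2 for fibroblast (-0.32). None of these passed the adjusted threshold, and each is 1 gene of a list whose other genes could differ in direction. Changes above 0 were seen for 11 of 18 proximal tubule, 2 of 4 thick limb and 2 of 9 distal tubule and collecting duct markers. They were seen for 0 of 5 podocyte, 3 of 5 endothelium, 1 of 6 leukocyte and 0 of 5 fibroblast markers, against 15811 of 31087 genes tested. In the red cell list Rhd rose by 2.61 and Ahsp by 2.34 on the log2 scale (adjusted p = 0.00477 and 0.0419 by limma).

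Genes whose 6 levels, centred on their own mean, lay closest to those of a member were sought among 12014 other genes with a symbol. For Slc22a12 these were Spata31d1, Bpgm, an enzyme of red cell phosphoglycerate metabolism, and Sqle, an enzyme of cholesterol synthesis, with root mean square differences of 0.06 each on the log2 scale over 6 arrays. Their log2 changes were 0.59, 0.50 and 0.51. Spata31d1 was dim, with mean levels of -4.57 after o-anisidine and -5.16 in controls. For Slc47a1 they were Kctd6, Daglb and Adam4, with root mean square differences of 0.04, 0.05 and 0.05 and log2 changes of -0.27, -0.30 and -0.34. The search covered both groups, so log2 changes like those of the member follow from the way these genes were picked.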

How the data were processed

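The data were 6 single-colour arrays, 1 per rat, grouped by sample titles into 3 o-anisidine and 3 control animals, described in the series design as biological replicates. Per the file headers, the deposited spot intensity values came from Agilent Feature Extraction 10.7.1.1 (10.7 in the submitters' processing notes), and the processed intensity is background-subtracted and detrended within each array. Other columns are flags and control types, per the file headers. The authors' deposited value table holds an intensity that equals, by comparison, the processed signal over the array's 75th percentile; its column for each replicate matched another replicate's scanner file of the same group. Scanner-file numbering is used here.

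Each array's log2 processed signal was scaled to its 75th percentile (923 to 1031) over 61657 non-control probes, of which 41670 to 43630 were well above background and none saturated. Probes with an outlier flag (16), or below that mark on some array of each group, were dropped, keeping 42036. Accessions were named through RefSeq GRCr8 (27460 probes, 15284 symbols), and a gene took the values of its brightest kept probe, for 31087 genes (accessions without a symbol kept as their own). limma 3.58.1 in R 4.3.3 (lmFit, eBayes, 4 residual and 2.11 prior degrees of freedom, two-sided) compared the groups, with Benjamini-Hochberg adjustment over all genes at a threshold of 0.05; probe values came from the same fit over kept probes. The number of arrays limits the precision.

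Named genes were all members, and for each other list the top 2 in either direction past the threshold or else the smallest p. The 3 nearest patterns of the 2 members with the smallest p were also named. Slc22a24, Slco1a6, Aqp1, Mme, Slc7a13, Slc22a17, Slc17a1, Abcc4, Hprt1, Esr1, Nr1i3, Slco1b2, Aqp2 and Slc26a4 were added after their values were seen. Some genes that the rule or the lists cover, and 1 further motif, are not reported here. Lists covered other Slc22 and Slco carriers, urate handling, exchange-partner supply, ABC pumps, regulators and 8 cell types. Alternatives changed background correction, scaling, the dim-probe filter, the probe rule, the variance model, slide or replicate blocks, the value table and single arrays. The members and lists were chosen with earlier results of these data known. The planned normexp alternative used the median signal in place of the mean signal.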

Additional observations from a re-analysis of the deposited data

How the results depend on the processing

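Of 153 member values over 17 alternatives, 140 kept their direction and their side of the threshold, 12 turned direction and 1, Slc22a12 under the trend and robust variance model, came under it. No other setting called a member. In some of these settings direction could not turn. Changes to the dim-probe filter, the variance model and the replicate block left each member's log2 change as in the main fit. The authors' value table holds the same scaled signal, and slide as a block repeated the log2 changes of the shared slide. Slc22a6 turned to -0.11 with quantile normalization, -0.0369 with the mean of all kept probes and -0.18 with slide as a block or within the shared slide, and lay between -0.0582 (without o-anisidine 2) and 0.16 when 1 array was left out. Slc22a8 turned to -0.00049 with quantile normalization and to -0.0024 with slide as a block or within the shared slide. Slco1a1 turned to 0.30 with slide as a block or within the shared slide, and lay between -0.52 and 0.13 when 1 array was left out. The apical median, the middle value of 3 carriers, was that of Slco1a1 with slide as a block or within the shared slide (0.30). When 1 array was left out it lay between -0.36 and 0.13. The -0.36 was the Slc47a1 value, without o-anisidine 3, and the 0.13 the Slco1a1 value, without o-anisidine 2. The causes were not tested. Over all genes, 19 passed the threshold, against 82 with normexp, 11 with no filter on dim probes, 120 with the trend and robust variance model (1 member among them), 3 with slide as a block and 2 within the shared slide. Leaving out 1 array gave 3 to 21: without o-anisidine 1, 2 or 3 the counts were 12, 21 and 3, and without control 1, 2 or 3 they were 7, 8 and 7. With the replicate number as a block the count was 1 and no member was called. Deviations from group means of same-numbered animals correlated only weakly across genes, at 0.02, 0.08 and 0.01. o-Anisidine 1 and 2 correlated best with their own number, and o-anisidine 3 correlated best with control 1, at 0.03.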
